A study of Mus musculus with 14 samples.

Results

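The comparison described here is that of messenger RNA in the cerebral cortex of Fmr1 knockout mice against control mice, read from RNA libraries of whole lysate. It covers 8 of the series' 14 libraries: 4 KO libraries, from mice 2, 4, 5 and 7, and 4 control libraries, from mice 1, 3, 6 and 8. The libraries were chosen by assay and genotype alone, as the labels give them, and the 6 libraries of ribosome footprints are not analysed here. All 8 mice carried the genotype Rpl22flox/flox;CamKCre+, and the KO mice in addition Fmr1X-Y. The source is called CAMKIIa-Ribotag mouse brain, a design in which a Cre driven by a promoter of excitatory forebrain neurons acts on a floxed ribosomal protein gene, so the controls carry the Cre and the floxed allele too. Age, strain and the hour of collection are not given in the sources used here. Each library started from the total RNA of the lysate, depleted of ribosomal RNA and sequenced with its strand kept, so every cortical cell type contributes and not the Cre-expressing neurons alone.

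Fmr1 encodes FMRP, an RNA-binding protein that associates with polyribosomes and restrains the translation of many neuronal mRNAs, and its silencing in humans causes fragile X syndrome. Much of what is known of FMRP in the cortex concerns protein synthesis at synapses, whereas the level of an mRNA reflects its transcription and its decay. Immediate early genes, cytosolic ribosomal proteins and respiratory chain subunits were set aside from the description below, which covers 66 other pathways and gene families and 15 lists of cell type or region markers.

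Library totals lay between 8847547 and 11371851 counts. Levels are in CPM, counts scaled to library size, and a gene is said to be called where its adjusted p was under 0.05 in edgeR's quasi-likelihood test over all 13507 genes tested. The libraries of KO mice 2, 4 and 7 were nearly identical: a chi-square statistic of their counts, which is 1 per degree of freedom for repeat sampling of a single library, was 1.18 to 1.32 between them, against 5.64 to 6.02 between each of them and KO mouse 5. Control mice 1 and 3 gave 1.99, the other control pairs 4.03 to 11.8, and pairs across the genotypes 5.66 to 9.75. The genes were therefore also tested with the counts of KO mice 2, 4 and 7 summed to 1 library, and with those of control mice 1 and 3 summed as well, below called both sums. In bulk tissue, fewer cells of a type and less RNA per cell cannot be told apart.

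Of the genes tested, 1001 (7.41%) were called, 477 higher in the KO (3.53%) and 524 lower (3.88%). The groups did not overlap in 2036 genes (15.1%), among them 900 of those called. Changes were mostly small: the median size among called genes was 0.36 on the log2 scale, and 40 genes passed 1. With KO mice 2, 4 and 7 summed 79 of 13648 genes were called (0.579%), and with both sums 36 of 13669 (0.263%), 17 higher and 19 lower, each of them also among the 1001. A call on any gene named below was therefore lost with both sums unless the text says that it was kept. Leaving out a single mouse gave 361, 356 and 376 calls without KO mouse 2, 4 or 7, 1469 without KO mouse 5, and 501, 650, 500 and 1763 without control mouse 1, 3, 6 or 8, and 288 genes were called whichever mouse was left out.

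The targeted gene followed the labels. Fmr1 stood at 90.0, 88.1, 82.5 and 71.4 CPM in control mice 1, 3, 6 and 8, and at 23.4, 22.4, 18.1 and 22.7 CPM in KO mice 2, 4, 5 and 7. The groups lay far apart and the KO level was 26.1% of control, a log2 change of -1.93 ± 0.095 (SE; adjusted p = 7.08e-08; p = 0.0286 by an exact two-sided permutation test, the lowest that 4 against 4 allows). That permutation test counts the near-identical KO libraries as separate mice. The call on Fmr1 was kept with both sums (adjusted p = 5.7e-05). The transcript's relatives Fxr1 and Fxr2, which encode the other two proteins of the family, had log2 changes of -0.07 and -0.03 and were not called. Among 21 genes of the FMRP family and its protein partners, Purb (0.38) and Stau1 (0.33), which encode RNA-binding proteins of neuronal transport granules, were called higher and none lower; in the exon columns, a separate count of the same libraries, they had 0.18 and 0.19 and were not called (adjusted p = 0.221 and 0.0741). Rpl22, the floxed gene that both groups carry, had a mean of 95.9 CPM in the 4 controls (SD 6.36) and of 80.6 CPM in the 4 KO mice (SD 5.83), and its call (adjusted p = 0.0355) was kept in 3 of the 8 fits that left out a mouse and lost in the exon columns (adjusted p = 0.531).

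**Figure D1:**
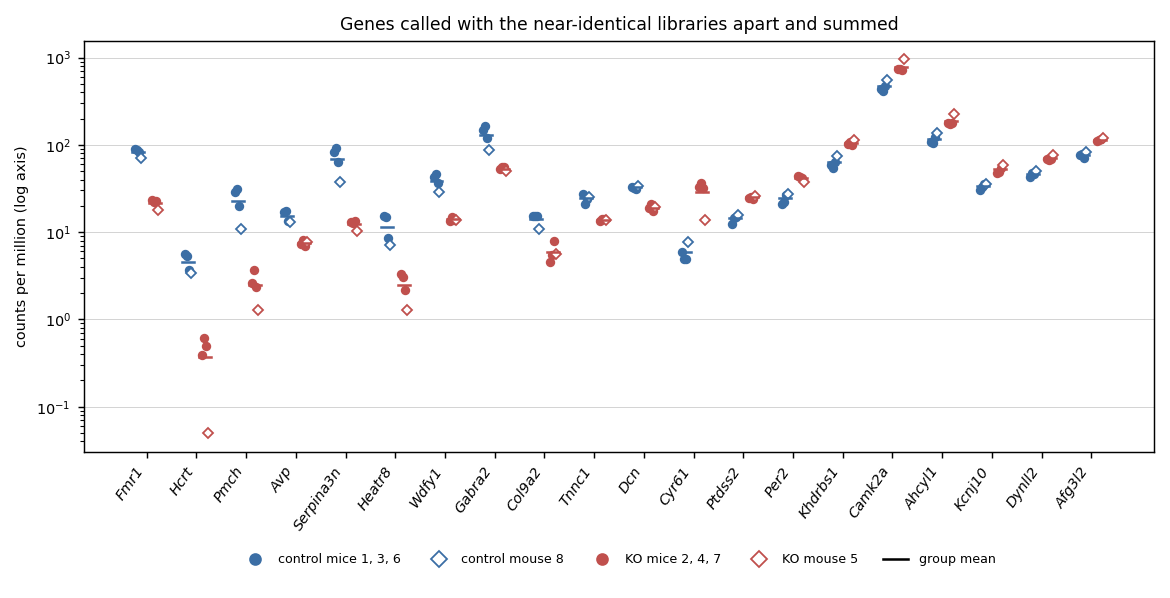
Level of 20 genes in each library, in CPM on a log axis; circles and diamonds are libraries, diamonds mark control mouse 8 and KO mouse 5, horizontal lines are group means, and the single KO library at 0 for Hcrt is drawn at the bottom of the axis. All 20 genes were called with the near-identical libraries apart and with both sums, and in each of them every KO library lies on the same side of every control library.

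Secreted peptides held the largest falls. Neuropeptides of the hypothalamus, which govern arousal, feeding and water balance, were called lower in 6 of 10 tested members and higher in none, with a median log2 change of -0.66 against -0.00125 over all genes. Hcrt encodes the orexin peptides of lateral hypothalamic neurons: control mice 1, 3, 6 and 8 held 5.64, 5.29, 3.65 and 3.41 CPM, KO mice 2, 4 and 7 held 0.391, 0.61 and 0.495 CPM, and KO mouse 5 none. All KO libraries lay far below the lowest control, and the fitted log2 change was -3.47 ± 0.37 (adjusted p = 0.000321; 0.0174 with both sums). Pmch encodes melanin-concentrating hormone, another peptide of the lateral hypothalamus, and fell from 28.8, 31.0, 20.04 and 10.7 CPM in the controls to 2.64, 3.66, 1.28 and 2.37 CPM in KO mice 2, 4, 5 and 7 (log2 change -3.14 ± 0.33, adjusted p = 0.000313; 0.0155 with both sums). Avp, the vasopressin gene, went from 17.0, 17.3, 13.5 and 13.0 CPM to 7.33, 8.11, 7.79 and 6.92 CPM, a log2 change of -1.01 ± 0.13 that was kept with both sums (adjusted p = 0.0388). Control mouse 8 was the lowest control for all 3 genes, and KO mouse 5 the lowest KO mouse for Hcrt and Pmch. Trh (-0.88), Cartpt (-0.77) and Nts (-0.33) were also called, whereas Oxt, the gene of oxytocin, made by neighbours of the vasopressin cells, changed by -0.10 ± 0.21 and was not.

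The marker list of the hypothalamus shares 7 tested genes with the peptide list, 4 of them called. It was called lower in 8 of 17 tested members and higher in none, at a median of -0.48. Its summed level was 837 to 1043 CPM in the controls and 689 to 728 CPM in the KO mice. The peptide list summed to 81.3 to 114 CPM in the controls and 47.4 to 51.4 CPM in the KO mice. Most of the summed level of the hypothalamus list thus came from members outside the peptide list. Of the 10 members outside the peptide list 4 were called, all lower, and each of the 10 had a negative change (median -0.37). The 4 were Nnat (-0.76), Hap1 (-0.62), Vat1l (-0.50) and Zcchc12 (-0.48), which other brain regions express too; Nnat and Hap1 kept their calls with both sums (adjusted p = 0.033 and 0.0498). The transcription factors that define hypothalamic neurons, Otp, Sim1, Nkx2-1 and Six6, were below the filter on low counts, with at most 10 counts in any library. Their part, and that of the tissue's dissection, was not tested. Of the other secreted factors, 4 of 24 cortical neuropeptide and granule genes were called, each lower, among them Chga (-0.35), Pam (-0.27) and Scg2 (-0.24), of which the first and last encode granins of dense-core vesicles. Growth factors moved in both directions, with 2 of 46 called higher and 3 lower; Ntf3, which encodes a neurotrophin, fell from 2.13 ± 0.46 to 0.938 ± 0.18 CPM (SD, n = 4 each; log2 change -1.16), Igfbp2 fell by 0.41 and Igfbp7 rose by 0.41 on the log2 scale. Of 46 genes of TGF-beta, BMP and activin signalling 1 was called, the follistatin-like Fstl5 (-0.28), and of 33 Wnt ligands and receptors 1, the receptor Fzd4 (0.63).

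Cyr61 showed the largest rise. It encodes a matricellular protein of the CCN family, secreted proteins that bind integrins and are transcribed rapidly after stimulation. Control mice 1, 3, 6 and 8 held 5.85, 4.98, 4.98 and 7.8 CPM, and KO mice 2, 4, 5 and 7 held 33.0, 36.4, 13.8 and 32.1 CPM. KO mouse 5 was much lower than its group yet above every control, and the rise was 4.9-fold (log2 change 2.29 ± 0.25, adjusted p = 0.000338; 0.0247 with both sums). Of the other CCN members, Ctgf rose by 0.37 and Nov fell by 0.35 on the log2 scale, both without overlap of the groups.

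Genes regulated by neuronal activity, listed apart from the immediate early genes, were called higher in 11 of 39 tested members and lower in 1, with a median of 0.16. Whether they are induced with the immediate early genes or after them was not tested. Dusp1, a nuclear phosphatase that inactivates MAP kinases, stood at 19.7, 19.1, 20.6 and 35.8 CPM in control mice 1, 3, 6 and 8 and at 71.8, 70.5, 30.2 and 75.6 CPM in KO mice 2, 4, 5 and 7. KO mouse 5 lay below control mouse 8, so the groups overlapped, although the fitted log2 change of 1.39 ± 0.25 was called (adjusted p = 0.00513; 0.197 with both sums). For Trib1 (1.26) KO mouse 5 also lay below control mouse 8, and for Klf4 (1.25) below all controls. Over the whole list the mean deviation from the 8-library mean was 0.18 to 0.23 in KO mice 2, 4 and 7, -0.05 in KO mouse 5, 0.09 in control mouse 8 and -0.21 to -0.23 in the other controls. The median of the list was 0.16 with KO mice 2, 4 and 7 summed and 0.12 with both sums, where no member was called, and 0.07 in mice 5 to 8 alone. Dual-specificity phosphatases were called higher in 4 of 21 and lower in none, Dusp5 rising from 6.09 ± 1.93 to 11.6 ± 1.79 CPM (0.93) and Dusp6 from 58.8 ± 14.4 to 89.3 ± 19.6 CPM (0.60). For Dusp6, KO mouse 5 (60.9 CPM) lay below control mouse 8 (80.4 CPM), and DESeq2 did not call it (adjusted p = 0.0864). The median of the phosphatase list was 0.11 over 8 libraries and -0.06 in mice 5 to 8. None of the 6 Sprouty and Spred genes, which restrain receptor signalling upstream of the same kinases, was called, at a median of 0.20, with Spred1 at 0.04 and Spred2 at 0.14. Their mean deviation was 0.10 to 0.31 in KO mice 2, 4 and 7 and -0.16 in KO mouse 5. It was 0.06 in control mouse 8 and -0.18 to -0.16 in the other controls. Kinases of the MAP kinase cascade were close to the background, with 3 of 56 called, all higher: Mapk10 (0.31), Map3k10 (0.20) and Mapk6 (0.19).

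Calcium and cyclic nucleotide signalling moved gene by gene. Camk2a, the alpha subunit of the CaM kinase that dominates excitatory synapses and the gene whose promoter drives the Cre, stood at 433, 411, 473 and 552 CPM in control mice 1, 3, 6 and 8 and at 744, 729, 951 and 718 CPM in KO mice 2, 4, 5 and 7. Every KO library was above every control, and the log2 change was 0.75 ± 0.099 (adjusted p = 0.00076; 0.0312 with both sums). In the exon columns the same gene rose by 0.40, and which difference between the columns this follows was not tested. Calm2, a calmodulin gene, fell by 0.34 (by 0.20 in the exon columns), and Ppp3r1, the regulatory subunit of calcineurin, rose by 0.37 but was not called in the exon columns (0.22, adjusted p = 0.154). Of 45 adenylyl cyclases and phosphodiesterases, 4 were called higher and 1 lower, including Adcy9 (0.24), Pde4a (0.27) and Pde9a (-0.35). Of 17 regulators of G-protein signalling, Rgs12 alone was called (-0.38).

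Receptors, channels and synaptic proteins were called more often higher than lower, except in the lists of GABA receptors and ion pumps. Over all genes 3.53% were called higher and 3.88% lower. With both sums the only calls left in all these lists were Kcnj10 and Slc32a1, higher, and Gabra2, lower. Among potassium channels, which set the resting potential and the firing pattern, 9 of 73 were called higher and 1 lower, and 53 of the 73 had a positive change (median 0.10). Kcnj10 encodes the inward rectifier through which astrocytes clear potassium: the controls held 30.0, 32.7, 35.8 and 35.6 CPM and KO mice 2, 4, 5 and 7 held 48.2, 48.8, 59.4 and 54.6 CPM. Its log2 change was 0.65 ± 0.087 and its call was kept with both sums (adjusted p = 0.0312), while the exon columns gave 0.29. Kcnab1, an auxiliary subunit of voltage-gated channels, rose by 0.48. Kcnj13 fell by 0.97 at a low level, from a mean of 2.74 to 1.41 CPM. Its call was kept in 3 of the 8 fits that left out a mouse. Sodium, calcium and HCN channels had 5 of 48 called higher and 1 lower, with Scn4b (0.33), Cacnb4 (0.26) and Trpc5 (-0.31) the largest in size. Of 19 ion pumps and their subunits, Fxyd7 (0.29), which modulates the sodium pump, was called higher and Atp2b4 (-0.36), a plasma membrane calcium pump, lower.

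Among receptors, Gabra2 stood apart. This gene encodes an alpha subunit of the GABA-A receptors at inhibitory synapses, and held 148, 164, 119 and 87.0 CPM in control mice 1, 3, 6 and 8 and 52.4, 55.3, 49.8 and 55.2 CPM in KO mice 2, 4, 5 and 7. The KO libraries lay within a narrow band below all controls, which themselves spread widely, and the log2 change was -1.28 ± 0.14 (adjusted p = 0.000338; 0.0312 with both sums). Of the other 15 GABA receptor genes only Gabrg1 was called (-0.25). Ionotropic glutamate receptors and their auxiliary subunits had 2 of 30 called, Cacng2 (0.41) and Grik5 (0.35), both higher, and of 7 metabotropic receptors Grm2 was called (0.30). Monoamine and acetylcholine receptors were called higher in 5 of 35, led by Adrb1, a beta adrenoceptor (0.67 ± 0.11), and Adra1d (0.37), and lower for Htr2c (-0.46), a serotonin receptor. The mean deviation of that list was as high in control mouse 8 as in the highest KO library (0.10 in both) and -0.02 in KO mouse 5, and its median was 0.11 over 8 libraries and -0.02 in mice 5 to 8.

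At the synapse itself, postsynaptic scaffolds had 3 of 23 called, all higher: Shank1 (0.36), Cnksr2 (0.34) and Dlg3 (0.26). Of 59 genes of the presynaptic release machinery, 7 were called higher and 4 lower. Rims3 (0.46), a protein of the active zone, and Syn1 (0.46), which tethers synaptic vesicles, were among the former. Cplx2, a complexin that clamps vesicle fusion, was called lower (-0.60 ± 0.15), but the groups overlapped and the exon columns gave 0.02. Slc32a1, the vesicular transporter that loads GABA and glycine, stood at 52.1, 53.6, 60.8 and 57.1 CPM in the controls and 76.6, 83.2, 89.3 and 81.8 CPM in KO mice 2, 4, 5 and 7. That rise of 0.56 ± 0.069 was kept with both sums (adjusted p = 0.0388). Slc17a7, its counterpart for glutamate, rose by 0.20, and the GABA and betaine transporters Slc6a12 (-0.89) and Slc6a13 (-0.65), expressed at the brain's surface and blood vessels, fell.

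**Figure D2:**
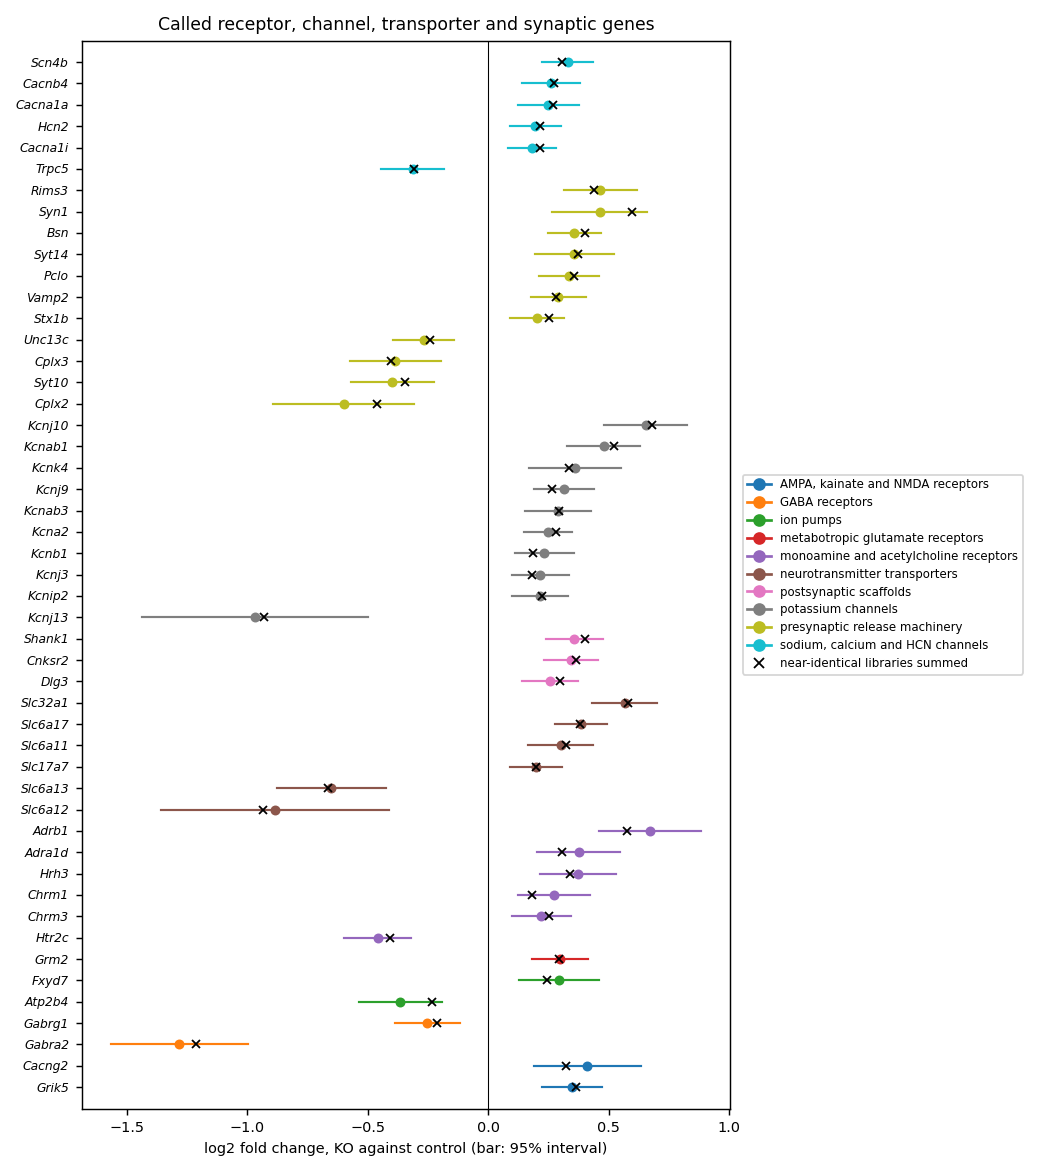
Log2 fold change of the 49 called genes among receptors, channels, pumps, transporters and synaptic proteins; dots are the estimates from 8 libraries, bars their 95% intervals, colours the gene lists, and crosses the estimate with both sums. Higher calls are spread over channels, scaffolds and release proteins at 0.18 to 0.67, and Gabra2 (-1.28) is the lowest.

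The circadian clock had the highest share of higher calls among the 81 lists, 11 of 21 tested members, with 1 lower and a median of 0.30. In this transcriptional loop, CLOCK and BMAL1 (encoded by Arntl) bind E-boxes and drive the Per and Cry genes, Dbp, Nr1d1, Nr1d2 and others, the PER and CRY proteins inhibit that drive, and NR1D1 and NR1D2 repress Arntl, whose mRNA cycles out of phase with that of its targets. The promoters of Per1 and of Gm129 (Ciart in RefSeq), a repressor of the same loop, are shown because they are the 2 of the 9 matched clock genes called higher whose window holds the E-box CACGTG, a palindrome that reads alike on both strands. They are RefSeq sequences of build GRCm38.p6, from 250 bases before to 50 after the annotated start, with each E-box in capitals, for Per1 at chr11:69098699-69098998 on the plus strand and for Gm129 at chr3:95882179-95882478 on the minus strand.
Per1: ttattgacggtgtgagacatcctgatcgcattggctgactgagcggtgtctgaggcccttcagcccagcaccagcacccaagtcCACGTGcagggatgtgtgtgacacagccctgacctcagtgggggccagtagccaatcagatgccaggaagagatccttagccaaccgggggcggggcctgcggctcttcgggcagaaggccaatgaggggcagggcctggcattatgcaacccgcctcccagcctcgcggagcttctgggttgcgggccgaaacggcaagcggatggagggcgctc
Gm129: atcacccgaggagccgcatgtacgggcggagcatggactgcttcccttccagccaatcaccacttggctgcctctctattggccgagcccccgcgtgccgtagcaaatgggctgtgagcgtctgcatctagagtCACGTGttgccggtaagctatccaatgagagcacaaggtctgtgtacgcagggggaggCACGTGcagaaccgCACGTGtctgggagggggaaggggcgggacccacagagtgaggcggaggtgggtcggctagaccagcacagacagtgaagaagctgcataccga
The E-box begins at position -166 from the start of Per1, and the 3 of Gm129 begin at -116, -58 and -44. This motif was found in 5 of the 18 clock genes with a promoter in the table (27.8%). Of the 9 called higher, 2 held it (22.2%), and the remaining holders, Bhlhe41, Cry1 and Tef, were not called. The motif was found in 9.96% of the 10761 tested genes with a promoter and in 7.24% of all 27025 genes there. Only 79.8% of the tested genes looked up had a promoter, too few for a comparison. Whether the motif bears on the changes was not tested.

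The called clock genes held the following levels. Per1 stood at 68.4, 56.3, 65.3 and 75.1 CPM in control mice 1, 3, 6 and 8 and at 129, 127, 91.4 and 118 CPM in KO mice 2, 4, 5 and 7 (0.81 ± 0.10, adjusted p = 0.000602; 0.0601 with both sums). Per2 went from 21.2, 22.2, 26.8 and 27.5 CPM to 44.4, 43.0, 37.9 and 41.8 CPM, and was the single clock gene called with both sums (0.78 ± 0.093; adjusted p = 0.0388). For both genes the KO mice lay above all controls, KO mouse 5 being the lowest of them. Gm129 rose from 17.4, 13.5, 19.8 and 17.3 CPM to 27.1, 27.3, 25.002 and 30.8 CPM (0.70 ± 0.11). Dbp, a transcription factor that relays the clock to its output genes, rose from 66.9, 67.6, 84.2 and 53.9 CPM to 110, 107, 108 and 103 CPM (0.65 ± 0.098). Arntl itself fell from 56.3, 52.0, 47.0 and 60.4 CPM to 38.6, 43.5, 38.1 and 39.8 CPM (-0.43 ± 0.084, adjusted p = 0.00839; 0.174 with both sums). The groups did not overlap for any of these 5 genes. The other called members, named after their values were seen, were Bhlhe40 (0.64), Per3 (0.54), Hlf (0.47), Nr1d2 (0.39), Nr1d1 (0.38), Cry2 (0.31) and Usp2 (0.27), all higher; for the first 3 of these KO mouse 5 overlapped with control libraries. Of the 12 called genes 9 kept their call whichever mouse was left out, the exceptions being Per3, Hlf and Usp2. With KO mice 2, 4 and 7 summed 4 members were called, all higher, and the list's median with both sums was 0.31.

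**Figure D3:**
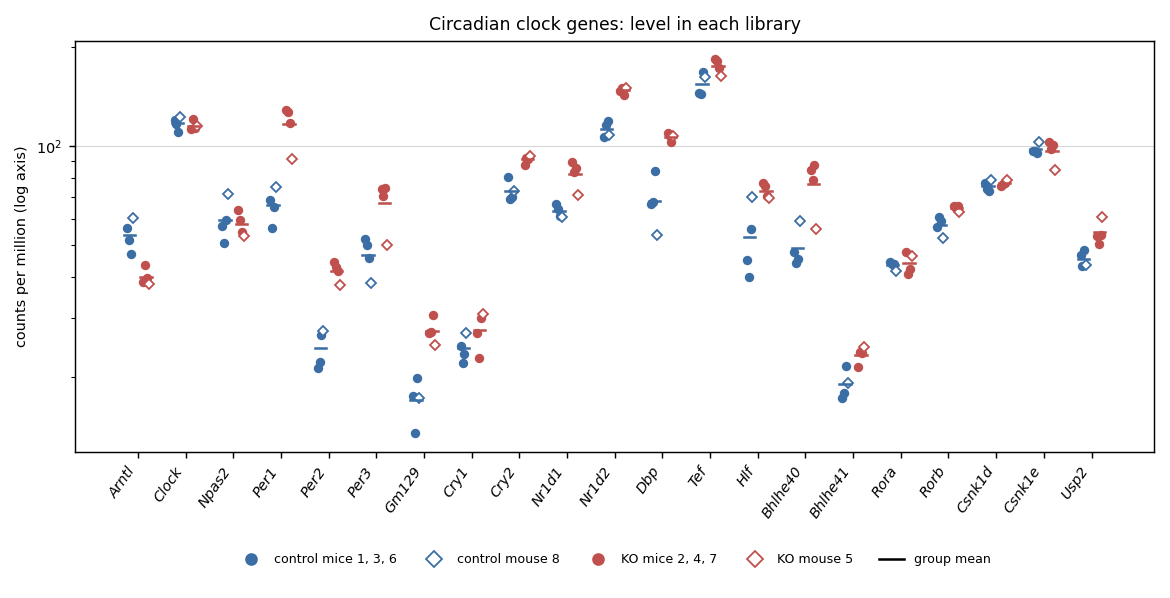
Level of the 21 circadian clock genes in each library, in CPM on a log axis; symbols and lines as in the plot of leading genes. Per1, Per2, Gm129 and Dbp lie higher in every KO library than in every control library and Arntl lower, while Clock, Npas2, Csnk1d and Csnk1e differ little.

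In the nucleus, histone genes were called lower in 11 of 62 tested members and higher in 1, at a median of -0.22. Many of these genes are near-identical copies that reads cannot separate with certainty, and most histone mRNAs lack a poly(A) tail, which this depletion-based preparation retains. Hist2h4 fell from 24.1 ± 3.08 to 14.8 ± 1.56 CPM (-0.71) and Hist1h4j by 0.59, and H3f3b, a replication-independent variant made in neurons, fell by 0.41, whereas the linker histone H1fx rose by 0.54. Control mouse 8 had a mean deviation of -0.17 for this list, within the KO range of -0.19 to -0.03. Chromatin regulators had 6 of 106 called higher, with Arid3b (0.90), Kdm6b (0.41) and Baz2a (0.34), and 1 lower. Kruppel-like factors had 3 of 21 called, all higher: Klf4, Klf2 (2.1 ± 0.60 to 4.94 ± 1.76 CPM, 1.24) and Klf13 (0.32, but 0.03 in the exon columns). The mean deviation of that list was 0.10 to 0.23 in KO mice 2, 4 and 7, -0.12 in KO mouse 5, 0.04 in control mouse 8 and -0.13 to -0.11 in the other controls, and its median was 0.12 over 8 libraries and -0.02 in mice 5 to 8. Of 81 splicing factors 5 were called higher and 3 lower, with Snrpd2 (-0.66), a core protein of spliceosomal particles, Rbfox3 (0.61, or 0.25 in the exon columns; the neuronal splicing regulator NeuN) and Prpf3 (0.56). Khdrbs1, the signal-responsive splicing regulator Sam68, lay outside the lists and stood at 59.1, 54.6, 63.0 and 74.7 CPM in the controls and 102, 108, 113 and 98.8 CPM in KO mice 2, 4, 5 and 7 (0.75 ± 0.085; adjusted p = 0.0312 with both sums). Numbered zinc finger genes, the largest family, had 4 of 304 called higher and 6 lower, under the share of all genes, with Zfp513 (0.63), Zfp787 (-0.43) and Zfp652 (0.39) the largest called.

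Beyond the cytosolic ribosomal proteins, 6 lists of translation, ribosome assembly and mTOR held 15 calls among 235 tested genes, 6.38% against 7.41% of all genes. Initiation factors had 1 of 56, Eif3b, which anchors the eIF3 complex and rose from 69.3 ± 4.34 to 99.1 ± 7.6 CPM (0.51 ± 0.068; adjusted p = 0.0498 with both sums). Elongation and release factors had 2 of 17 called, both lower, Eef1e1 (-0.38) and Eef1a1 (-0.31), the factor that delivers aminoacyl-tRNA. Sars was called among 39 aminoacyl-tRNA synthetases (-0.18), and Sesn3, which restrains mTORC1, among 25 genes of the mTOR pathway (0.25). Ribosome biogenesis had 3 of 24 called, all lower, Rrp9 (-0.30), Pes1 (-0.29) and Npm1 (-0.24). Mitochondrial ribosomal proteins were called lower in 6 of 76 and higher in 1, and 58 of the 76 were negative (median -0.10), with Mrps33 (-0.51), Mrps18c (-0.46) and Mrpl12 (0.59) the largest.

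Protein turnover showed both directions within single complexes. Of 46 proteasome genes 4 were called higher and 5 lower. The 4 higher ones, Psmc2 (0.38), Psmd7 (0.38), Psmd3 (0.33) and Psmd11 (0.29), encode subunits of the regulatory particle. Of the lower ones Psmb7 (-0.36), Psmb3 (-0.29), Psma2 (-0.20) and Psmb6 (-0.19) belong to the catalytic core and Psmc3 (-0.25) to the regulatory particle; this grouping by particle was made after the values were seen. Nedd8, a ubiquitin-like modifier that activates cullin ligases, stood at 117, 98.6, 94.1 and 86.2 CPM in the controls and 57.0, 58.0, 64.8 and 62.3 CPM in KO mice 2, 4, 5 and 7 (-0.71 ± 0.085; adjusted p = 0.0388 with both sums). Heat shock proteins and co-chaperones had 3 of 87 called higher, with Hspb1 at 1.71 ± 0.50 and 3.22 ± 0.77 CPM (0.90), and 8 lower, with Dnajc17 (-0.48) and Dnajc8 (-0.46). The list's mean deviation was -0.06 to -0.02 in KO mice 2, 4 and 7 and 0.05 in KO mouse 5. It was -0.04 in control mouse 8 and -0.02 to 0.06 in the other controls. The median of the list was -0.05 over 8 libraries and 0.03 in mice 5 to 8. No gene of the 21 in the endoplasmic reticulum stress response was called by edgeR, with Canx at -0.11 and Hsp90b1 at -0.09. Autophagy and lysosomal genes had 5 of 63 higher, led by Atg7 (0.60), and 4 lower, led by Atp6v1c2 (-0.81) and Ctsk (-0.62). Among HECT and other large ubiquitin ligases Herc6 (0.78) and Ube3b (0.25) were called higher and Cul7 (-0.26) lower, of 34. Of 33 ubiquitin-conjugating enzymes Ube2z was called (0.29), and of 47 deubiquitinases Usp2 and Usp8 (0.19) were called higher and Usp11 (-0.26) lower. Afg3l2, a protease of the inner mitochondrial membrane outside these lists, rose from 77.2, 79.3, 70.8 and 82.1 CPM to 111, 112, 119 and 118 CPM (0.57 ± 0.059; adjusted p = 0.0312 with both sums).

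Among the metabolic lists, glycolysis had Pfkfb3 (0.56) higher and Pkm (-0.37) lower of 20. The TCA cycle had 3 of 21 higher, Idh3a (0.33), Suclg1 (0.26) and Ogdh (0.20), 14.3% of its members against 7.41% of all genes, while 14 of the 21 had a negative change. Cholesterol synthesis had 1 of 25 called, Dhcr7 (0.29), the peroxisome 1 of 24, Pex14 (-0.30), and fatty acid synthesis none of 25, with Scd2 at 0.09 and Fasn at 0.04. Mitochondrial carriers and import proteins had 4 of 62 higher, with Slc25a33 (0.41), and 2 lower, Tomm5 (-0.44) and Timm10 (-0.36). Antioxidant genes had Txn2 (0.85) and Txnrd2 (0.43), which form the mitochondrial thioredoxin system, called higher and Gsta4 (-0.27) among 2 lower, of 44. Ptdss2, which makes phosphatidylserine, was in no list and rose from 12.3, 14.4, 15.1 and 15.9 CPM to 24.8, 25.4, 26.0 and 23.9 CPM (0.80 ± 0.091; adjusted p = 0.0312 with both sums). Ahcyl1, which binds and restrains the inositol trisphosphate receptor, stood at 108, 106, 122 and 135 CPM in the controls and 180, 172, 228 and 176 CPM in KO mice 2, 4, 5 and 7 (0.68 ± 0.095; adjusted p = 0.0348 with both sums).

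Motor proteins of the cytoskeleton were called lower in 10 of 88 tested members and higher in 2. Among the latter, Dynll2, a dynein light chain that also binds synaptic scaffolds, rose from 46.6 ± 2.76 to 70.004 ± 4.06 CPM (0.58 ± 0.069; adjusted p = 0.033 with both sums), and Kif19a (-0.46) and Myh7 (-0.43) had the largest falls among called members. The mean deviation of the list was lower in control mouse 8 (-0.07) than in every KO library (-0.06 to -0.02), and its median was -0.07 over 8 libraries and 0.03 in mice 5 to 8. Tubulins had 2 of 13 lower, Tubb2b (-0.56) and Tubb2a (-0.55 ± 0.092), and Tubb4a higher (0.36). Microtubule-associated proteins had 4 of 26 lower, including the stathmin Stmn3 (-0.26) and Map4 (-0.21), and 1 higher, Mapre3 (0.31), which binds growing microtubule ends. Of 18 spectrins, ankyrins and membrane linkers Ezr, which encodes ezrin, was called (-0.27). Actin regulators had 3 of 37 lower, with Tpm3 (-0.39) and Tmsb10 (-0.37), and Wasl higher (0.31). Gap43, a protein of growing and remodelling axons, fell from 355, 352, 307 and 330 CPM to 242, 236, 229 and 247 CPM (-0.50 ± 0.057; adjusted p = 0.0498 with both sums). Tnnc1, the troponin C of slow and cardiac muscle, went from 27.0, 21.1, 23.9 and 25.5 CPM to 13.5, 14.03, 13.6 and 14.1 CPM (-0.82 ± 0.093; adjusted p = 0.0234 with both sums).

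In adhesion and matrix, collagens and basement membrane genes were called lower in 7 of 61 and higher in 1 (median -0.21). The mean deviation of the list was -0.18 in control mouse 8 and -0.28 in KO mouse 5, against -0.07 to -0.01 in KO mice 2, 4 and 7 and 0.07 to 0.26 in the other controls. Col9a2 held 15.2, 15.5, 15.3 and 10.7 CPM in control mice 1, 3, 6 and 8 and 4.59, 5.4, 5.58 and 7.91 CPM in KO mice 2, 4, 5 and 7 (-1.27 ± 0.17; adjusted p = 0.0312 with both sums). Neurexins, contactins and other synaptic adhesion proteins were called lower in 8 of 51 and higher in 1; Cntnap5c (-0.60), Cntnap5a (-0.34) and Lrfn2 (-0.41) led the falls. KO mouse 5 had the highest mean deviation of the list among the 8 libraries (0.06), KO mice 2, 4 and 7 were at -0.07 to -0.04 and the controls at -0.01 to 0.05. For Cntnap5c, Cntnap5a and Lrfn2, KO mouse 5 lay below every control as well. Protocadherins were called higher in 6 of 68 and lower in 1, with Pcdhac1 (0.59), Pcdha6 (0.56) and Pcdha5 (0.48) of the alpha cluster, whose variants share their last exons. Semaphorins, ephrins and their receptors had 6 called each way of 69, with Sema3b (-0.68), Nrp2 (-0.55) and Efna5 (0.59). The perineuronal net and the metalloproteases had 3 of 37 called each way, with the link proteins Hapln4 (0.51) and Hapln1 (0.39) higher and the metalloprotease Mmp14 lower (-0.42), and 22 of the 37 had a negative change (median -0.04). None of 31 integrins and claudins was called, with Cldn11 at -0.10 and Itgav at 0.08.

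Serpina3n had the fall with the lowest adjusted p after those of Fmr1 and Wdfy1. It encodes a secreted protease inhibitor that astrocytes express upon injury and inflammation. It stood at 83.1, 92.4, 63.8 and 37.4 CPM in control mice 1, 3, 6 and 8 and at 13.1, 12.6, 10.3 and 13.5 CPM in KO mice 2, 4, 5 and 7. The controls differed among themselves by more than a factor of 2, yet the lowest was above all KO mice, and the log2 change was -2.48 ± 0.22 (adjusted p = 8.52e-05; 0.00736 with both sums). Of 14 acute phase and reactive astrocyte genes 4 were called lower, among them Cd44 (-0.61) and Gfap (-0.47), and Hspb1 higher. Wdfy1, an endosomal adaptor of Toll-like receptors, fell from 42.3, 46.1, 36.1 and 29.1 CPM to 13.5, 15.1, 13.6 and 13.6 CPM (-1.46 ± 0.13, adjusted p = 7.85e-05; 0.00736 with both sums). Complement and Fc receptor genes had 2 of 15 called, C2 (-0.85) and C1qb (-0.45), and interferon-stimulated genes 1 of 21, Stat2 (0.60). Hypoxia-inducible genes had 2 of 14 higher, Pfkfb3 and Egln1 (0.54). The list's mean deviation was lowest in KO mouse 5 (-0.107), against 0.070 to 0.124 in KO mice 2, 4 and 7 and -0.064 to -0.002 in the controls. Its median was 0.060 over 8 libraries and -0.006 in mice 5 to 8. Among genes that glucocorticoids induce, Per1 was the single call of 19.

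Several of the largest changes were in no list. Eps8l1 (1.86), Apold1 (1.02), Styx (0.91) and Rnf17 (0.87) were called higher and A230065H16Rik (-1.54) lower, all at group means under 6 CPM. Eps8l1 stood at 0.101, 0.207, 1.77 and 3.71 CPM in control mice 1, 3, 6 and 8 and at 5.96, 5.58, 4.54 and 5.24 CPM in KO mice 2, 4, 5 and 7. The lowest controls were mice 1 and 3, the change was 0.82 in mice 5 to 8 alone, DESeq2 did not call it (adjusted p = 0.222), and its edgeR call was kept in 2 of the 8 fits that left out a mouse. Heatr8 stood at 15.1, 14.8, 8.52 and 7.12 CPM in the controls and 3.32, 3.05, 1.28 and 2.18 CPM in KO mice 2, 4, 5 and 7 (-2.18 ± 0.29; adjusted p = 0.0312 with both sums). Fabp7, a fatty acid binding protein of radial glia and astrocytes (-0.80), and Agt, the angiotensinogen gene that astrocytes express (-0.61), fell and kept their calls with both sums (adjusted p = 0.0388 and 0.0312). Klhl29 (0.57), Cdadc1 (0.54), Cdk5r2 (0.51) and Clip3 (0.47) rose and kept theirs (adjusted p = 0.0388 each); these genes were named after their values were seen.

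**Figure D4:**
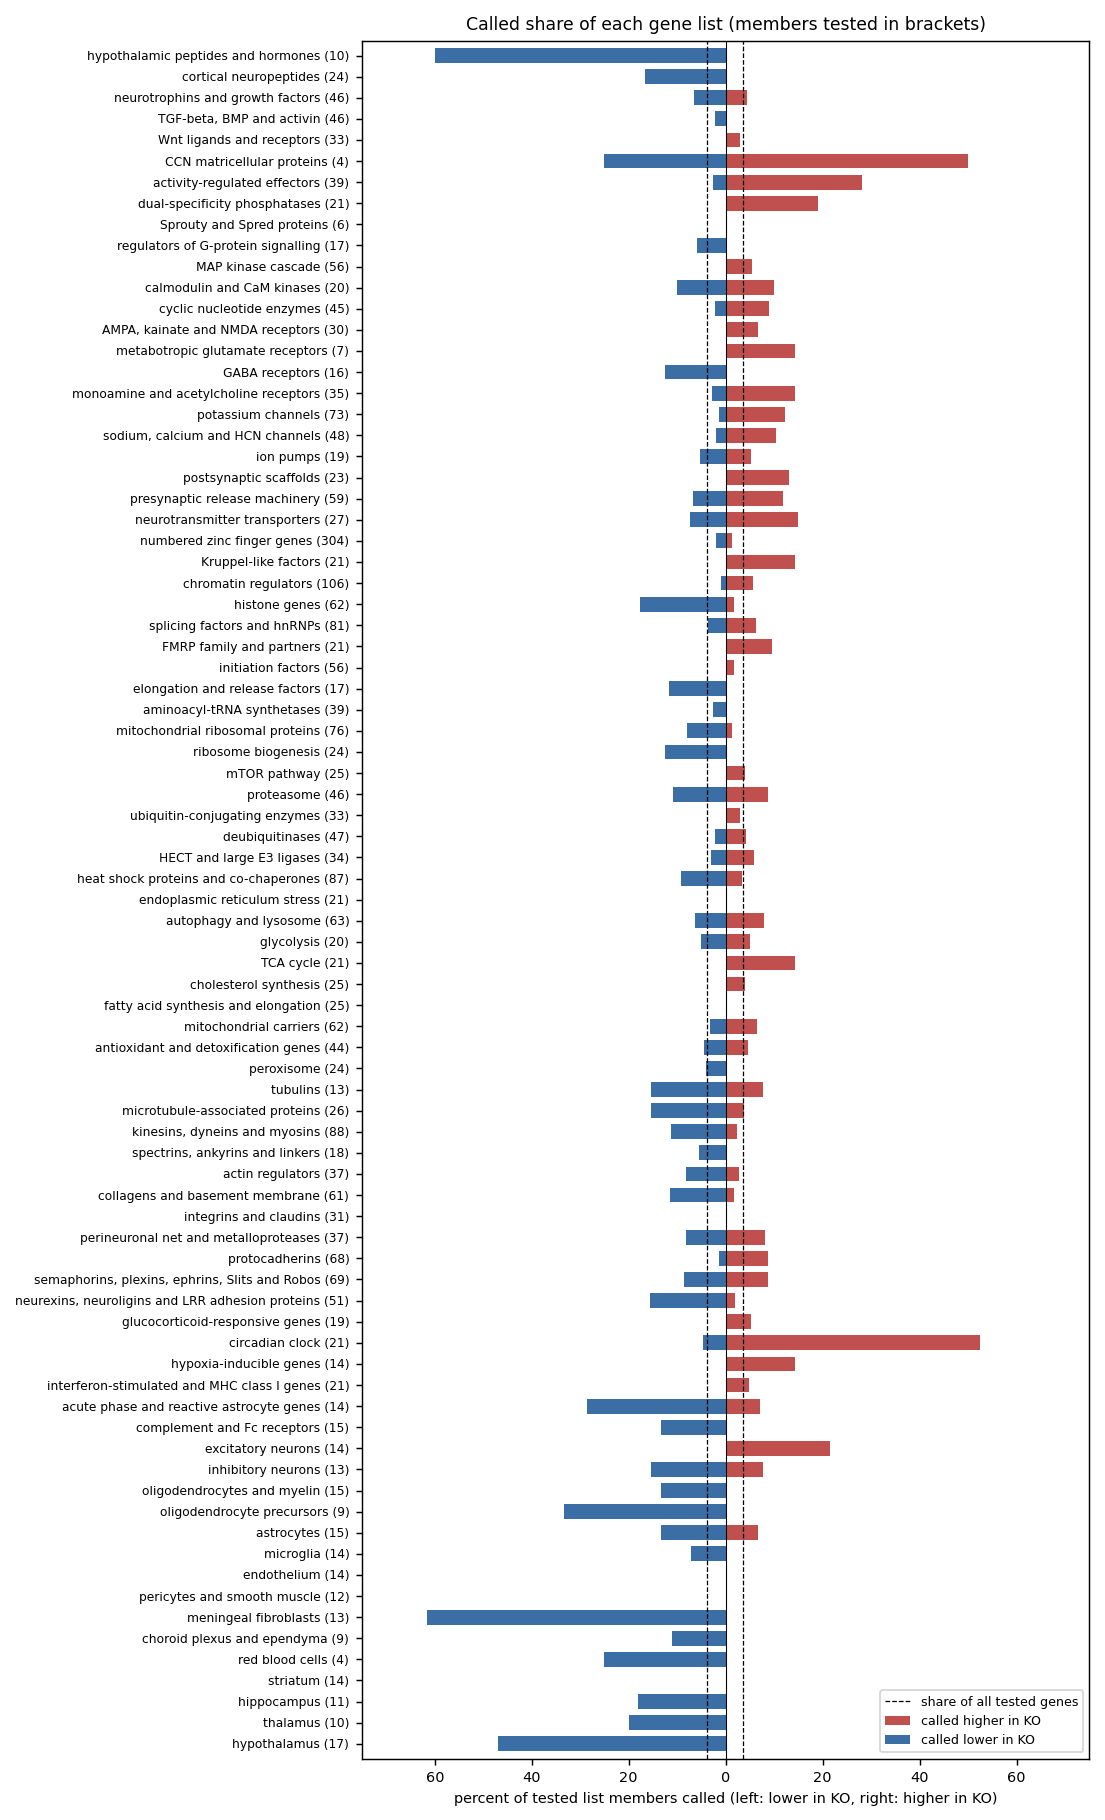
Percent of the tested members of each of 81 gene lists that were called, to the right higher and to the left lower in the KO, with the number tested in brackets; dashed lines are the shares over all 13507 genes, 3.53% higher and 3.88% lower. The circadian clock extends furthest to the right, followed by the 4 CCN genes, and hypothalamic peptides, hypothalamus and meningeal fibroblasts extend furthest to the left.

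Markers of cell types showed which cells the libraries held. Markers of excitatory neurons, the defining type of the cortex, were present at a summed 2988 to 3261 CPM in the controls and at 3641 to 3915 CPM in the KO group, with Camk2a, Foxp2 (0.41) and Slc17a7 called higher of 14. Most of that difference lay in 2 of these: Camk2a averaged 467 CPM in controls and 786 in KO mice and Slc17a7 1447 and 1660, while the median of the list was 0.13 and 4 of the 14 had a negative change. Inhibitory neuron markers had Slc32a1 higher and Pvalb (-0.35) and Calb2 (-0.34) lower of 13. Oligodendrocyte markers had 2 of 15 called lower, among them Ugt8a (-0.19), and their precursors 3 of 9, Bcas1 (-0.42), Enpp6 (-0.30) and Pdgfra (-0.27). Astrocytes had Gfap and Aqp4 (-0.46 ± 0.065) lower and Slc4a4 (0.24) higher of 15, and microglia 1 of 14. Meningeal fibroblast markers had the highest share of lower calls, 8 of 13 (median -0.40). They summed to 1001 to 1047 CPM in controls against 699 to 789 CPM in KO mice. Most of the sum in the KO mice was a single gene, Ptgds, at 446 to 494 CPM. Dcn, a small proteoglycan of connective tissue, held 33.0, 32.2, 31.2 and 33.4 CPM in the controls and 18.7, 21.1, 19.2 and 17.6 CPM in KO mice 2, 4, 5 and 7 (-0.76 ± 0.077; adjusted p = 0.0234 with both sums). Col3a1 (-0.65), Slc6a13, Col1a1 (-0.58), Igfbp2 and Ptgds (-0.39) were also called, and 4 of the 7 lower calls of the collagen list, Dcn, Col3a1, Col1a1 and Col1a2 (-0.51), are shared with this list. The part of the meninges in those collagen values was not tested.

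Endothelial and choroid plexus markers varied widely within both genotypes. Endothelial markers had none of 14 called, with Bsg at -0.05 and Slc2a1 at 0.31, and their mean deviation was 0.20 to 0.24 in control mice 1 and 3 and KO mice 2, 4 and 7, against -0.17 in control mouse 6, -0.44 in KO mouse 5 and -0.53 in control mouse 8. Pericyte markers had none of 12 called, with Vtn at -0.21 and Cspg4 at -0.05. Ttr, the transthyretin gene that marks choroid plexus, was at 263 CPM in control mouse 8 and 104 CPM in KO mouse 5 and between 0.349 and 9.63 CPM in the other libraries, and Ccdc153, an ependymal gene, was the single called member of 9 (-0.85). The mean deviation of the choroid plexus list was -0.59 to -0.46 in KO mice 2, 4 and 7, 0.48 in KO mouse 5 and -0.04 to 0.90 in the controls. Red blood cell markers had Slc4a1 called lower of 4 (-0.89), and their summed level ranged from 196 to 490 CPM in the controls and from 169 to 304 CPM in the KO group. Striatal markers had none of 14 called, with Pde10a at 0.03 and Adcy5 at 0.11 and a positive change in 13, hippocampal markers 2 of 11, Wfs1 (-0.39) and Fibcd1 (-0.59), and thalamic markers 2 of 10, Zic1 (-0.40) and Calb2.

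For the 7 lists in which edgeR called no gene, looser and other tests gave the following counts. At an unadjusted p under 0.05 there were 2 of 6 Sprouty and Spred genes, 5 of 21 endoplasmic reticulum stress genes, 5 of 25 fatty acid synthesis genes, 5 of 31 integrins and claudins, 1 of 14 endothelial, 1 of 12 pericyte and 2 of 14 striatal markers, against 23.3% of all genes. DESeq2 called 1 Sprouty or Spred gene, 1 integrin or claudin and none in the other 5 lists (8.45% of all genes), limma voom called 2, 6, 2, 3, 1, 0 and 4 genes in the same order of lists (19.9% of all genes), and edgeR on the exon columns 2, 0, 1, 2, 0, 0 and 1 (8.55%). Over all 81 lists, the mean deviations of the 4 KO libraries lay above those of all controls in 7 lists and below them in 9, beside 15.1% of single genes without overlap, and the median of 19 lists had the other sign in mice 5 to 8 alone.

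The exon columns, fitted in the same way, gave smaller changes for many of these genes. Of the 210 called genes named here, 36 were not called there, 18 of them with a change that moved by more than 1.5 times. Besides Purb, Stau1, Ppp3r1, Klf13, Cplx2 and Rpl22, these were Klf4 (0.76), Efna5 (0.28), Igfbp7 (0.24), Wasl (0.18), Dlg3 (0.17), Ube2z (0.15), Tomm5 (-0.27), Timm10 (-0.22), Eef1e1 (-0.20), Stmn3 (-0.17), Ezr (-0.17) and Map4 (-0.07). Another 18 moved by less and were not called there: Eps8l1, Hspb1, Slc17a7, Slc4a4, Usp2, Ogdh, Pde4a, Fxyd7, Kcnj13, Mrps33, Mmp14, Zfp787, Nov, Nts, Pex14, Gabrg1, Fstl5 and Ugt8a. A further 16 kept their call with a size moved by more than 1.5 times, among them Nedd8 (-0.47), Ahcyl1 (0.44), Dynll2 (0.36), Styx (0.52), Egln1 (0.35), Gap43 (-0.33), Kcnab1 (0.30), Htr2c (-0.28), Cacng2 (0.27), Aqp4 (-0.26), Hapln1 (0.26) and Foxp2 (0.26). With the title prefix that mice share as a block (1 prefix for mice 1 and 2, 1 for mice 3 and 4 and 1 for mice 5 to 8), 958 genes were called, 872 of them among the 1001. The named genes that lost their call in that fit were Nts, Gabrg1, Mapk6, Sars, Hspb1, Sema3b, Slc6a12, C2, Zfp787, Psmd11, Psmb6, Ezr, Fxyd7, Mapre3, Ube2z, Ugt8a and Usp8, 17 in all, at adjusted p-values of 0.0508 to 0.0647 by edgeR. DESeq2 did not call Nts, Sema3b, Col3a1 and Zfp787 (adjusted p = 0.0553 to 0.079), besides Dusp6 and Eps8l1. For further named genes of low level it gave no adjusted p and so made no call. Among these were Hcrt, Ntf3, A230065H16Rik, Apold1, Rnf17, Kcnj13, Atp6v1c2, Hspb1, C2, Slc4a1 and Slc6a12.

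**Figure D5:**
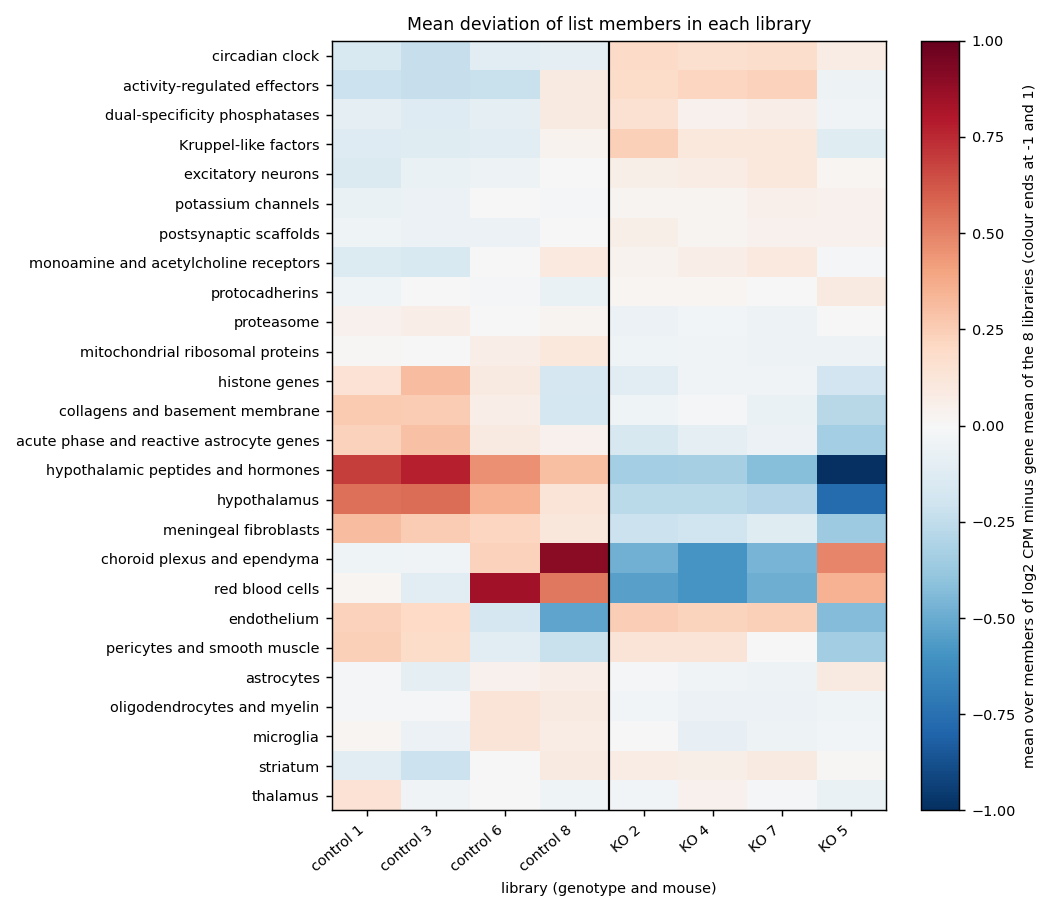
Mean deviation of the tested members of 26 gene lists in each of the 8 libraries, as log2 CPM minus each gene's mean over the libraries; red is above and blue below that mean, and the vertical line separates control from KO libraries. Hypothalamic and fibroblast lists are red in all 4 controls and blue in all 4 KO libraries, whereas endothelial, choroid plexus and red blood cell lists set KO mouse 5 apart from the other KO mice.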

How the data were processed

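RNA counts of 8 cortex libraries were analysed, grouped by the genotype in the labels, which also number the mice. The authors deposited 1 table of whole-number counts for 23412 genes, 20563 of them with a value in the RNA columns. Per the submitters' processing notes, Bowtie2, STAR 2.5, featureCounts and Subread 1.4.6 and the builds mm9 and mm10 were named, with no role or order. Each RNA library has a plain and an exon column; which region the plain one counts is not given in the sources used here. The plain columns held 52.9% to 56.7% of the exon totals and were used, with the exon columns as an alternative. Counts were tested with edgeR 4.0.16 (R 4.3.3; TMM, filterByExpr at a minimum count of 10, quasi-likelihood F test, two-sided, Benjamini-Hochberg adjustment over all genes tested), which was tested on simulated data. SEs come from the F statistic, CPM use TMM sizes, and 95% intervals cover the spread between these libraries. P-values measure that spread, which for KO mice 2, 4 and 7 is near the counting error.

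The members and gene lists were chosen with earlier results of these data known. Named were Fmr1, Rpl22, the 10 largest rises and falls among called genes averaging 1 CPM or more without overlap, up to 8 genes per direction called with both sums (both outside the lists set aside), and per list up to 3 called members of largest change, or 2 of highest level where none was called; other genes were named after their values were seen. Spreadsheet dates had replaced 27 gene names, which are not named here. Alternatives were other scalings, DESeq2 1.42.0, limma 3.58.1 voom with library weights, other filters, exon columns, each mouse left out, summed libraries, the title prefix as a block, and mice 1 to 4 or 5 to 8 alone. RefSeq promoters matched 78.7% of the genes called higher and 79.7% of those called lower, under 80%, so a comparison of their motifs is void and is not given; the shares for clock genes are a description. Protein lengths were not analysed here. Of the genes the rule names, 2 are not reported here.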

Additional observations from a re-analysis of the deposited data

Results flagged for a closer look

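Samples were compared within each genotype for 232 named genes and for the library totals, 466 groups of 4 in all, and in 40 of them a single library stood apart from the other 3 (its gap to the nearest of them, over the group's range, passed Dixon's 95% critical value). Chance alone flags about 1 in 20 groups. Of the 40, 24 were KO mouse 5, in a group whose other 3 libraries are nearly identical, and 7 were control mouse 8.

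KO mouse 5 was above its group for Nov at 210 CPM, Camk2a at 951, Kcnab1 at 125, Ahcyl1 at 228, Htr2c at 47.3, Tubb2b at 133, Syn1 at 523, Grik5 at 346, Ppp3r1 at 401, Rgs12 at 71.3, Snrpd2 at 38.6, Purb at 103, Psmb7 at 205, Mrps33 at 10, Cntnap5a at 96.8, Slc4a1 at 3.37, Atp2b4 at 394, Mapre3 at 82.1 and Pam at 550 CPM. It was below its group for Dusp1 at 30.2, Igfbp7 at 20.7, Ptgds at 446 and Psmd3 at 116 CPM. For Camk2a, Kcnab1, Ahcyl1, Syn1, Grik5, Ppp3r1, Mapre3 and Purb it thus lay further from the controls than the near-identical libraries did. For Nov, Htr2c, Tubb2b, Rgs12, Snrpd2, Psmb7, Mrps33, Cntnap5a, Atp2b4 and Pam, which were called lower, it lay nearer to them.

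Control mouse 8 was above its group for Ctgf at 27.8, Dusp1 at 35.8, Dusp6 at 80.4 and Egln1 at 40.2 CPM, and below it for Col9a2 at 10.7 and Slc25a33 at 28.3 CPM. Ttr was apart in both groups, at 263 CPM in control mouse 8 and 104 CPM in KO mouse 5. Control mouse 6 was above its group for Slc6a12 at 3.1 and Fibcd1 at 10.4 CPM, and below it for Hsp90b1 at 647 CPM. Control mouse 3 was highest for Fzd4 at 6.85 CPM and control mouse 1 for Pes1 at 69 CPM. KO mouse 4 was highest for Wdfy1 at 15.1 CPM and lowest for Ctsk at 5.67 and Ogdh at 454 CPM, and KO mouse 2 was highest for Mapk6 at 143 CPM.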

How the results depend on the processing

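The 1001 calls became 1009 with RLE size factors and 1036 with plain library sizes, and the share of higher calls moved from 47.7% to 48.8% and 48.0%. DESeq2 called 1142, the fit with no filter on low counts 1042, a minimum mean of 1 CPM 1003, exon columns 1246 (744 shared with the 1001) and the title prefix as a block 958 (872 shared). The following alternatives moved the count by more than 1.5 times: limma voom with library weights gave 2686, mice 1 to 4 alone 3273, mice 5 to 8 alone 88, KO mice 2, 4 and 7 summed 79, and both sums 36. Leaving out 1 mouse gave 356 to 1763. Mice 1 to 4 are the control pair that differed least (chi-square 1.99 per degree of freedom) and 2 of the near-identical KO libraries; for limma voom the cause was not tested. Of 232 named genes, counted with those not called, 231 kept their side of the threshold with RLE and 230 with plain library sizes, 214 with DESeq2, where 6 lost it and the rest have no adjusted p, 195 with exon columns, 215 with the title prefix as a block, 66 with the KO sum, 54 with both sums and 62 in mice 5 to 8. Cplx2 lost its change in the exon columns, from -0.60 to 0.0202, where edgeR did not call it (adjusted p = 0.887). Npas2, not called, changed from -0.04 to 0.204 and was called in mice 1 to 4. The cause was not tested for either gene. No paired analysis was possible because the replicate numbers only follow accession order and pair no mice; mice were compared within a shared label only in the fit with the title prefix as a block, whose meaning is not given in the sources used here. At 8847547 to 11371851 counts a library, genes near 1 CPM rest on about 10 counts, which limits their precision. Intervals cover counting error and the spread of these libraries only.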
